A study of Homo sapiens with 4 samples.

Results

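Distal 8q, the outermost stretch of the long arm of chromosome 8, held 574 of the 125986 regions of accessible chromatin listed for A375 cells, an established human melanoma line. The members were the listed regions of the outer 10.1 Mb of chromosome 8 in GRCh38 coordinates, taken by position, from the region that begins at 135004445 to the last, which ends at 145052779. The other 6010 regions of chromosome 8 served as the comparison. The assay was ATAC-seq, where open DNA is cut and tagged by the Tn5 transposase. Both groups were A375 cells cultured for 48 h, one with 1 mM octanoate, a medium-chain fatty acid, and the other with isopropanol, the vehicle. Each group had 2 libraries, and nothing in the labels says whether they came from separate cultures. The authors' deposited table gives 1 mean, 1 log2 fold change (octanoate over vehicle) and 1 standard error (SE) of it per region, with no value for any single library, so the depth and the spread between libraries cannot be shown here. The stretch itself was selected on measured values, the fold changes and p-values of this same comparison at TSNARE1 and TRAPPC9, which are among the strongest listed. Every fold change and p-value below is therefore a description of the authors' deposited table and no test of the stretch.

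As background, the proximal part of this stretch is poor in genes and holds a few long ones, among them FAM135B, COL22A1, which encodes a collagen, and TRAPPC9, a subunit of the TRAPPII complex that tethers transport vesicles at the Golgi. TRAPPC9 sits in an imprinted domain with KCNK9, a two-pore potassium channel gene, and PEG13, a noncoding RNA gene inside TRAPPC9 that is transcribed from the paternal copy. TSNARE1 encodes a protein with a t-SNARE domain, the kind of domain that drives membrane fusion. Beyond it come ARC, the LY6/uPAR family of small lipid-anchored or secreted proteins, and then a band crowded with housekeeping genes that reaches almost to the telomere.

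Changes in accessibility with octanoate were higher across distal 8q than over the rest of the chromosome. Per the authors' deposited table, the 574 members had a median of 0.41 on the log2 scale, with quartiles of 0.15 and 0.69, and the rest of chromosome 8 had 0.19, with quartiles of -0.07 and 0.49. The difference between these medians was 0.22. Of the members 494, or 86.1%, lay above 0, against 69.1% of the rest of chromosome 8 and 72.1% of the whole table. The middle 50% of the 2 sets overlapped over most of their length, so the stretch was displaced but did not stand clear of its chromosome. All medians share an offset, because the whole table had a median of 0.23 and its tested regions one of 0.19. Over all regions the members' 0.41 thus stands beside 0.23, and over tested regions their 0.32 stands beside 0.19. Tested here means that the authors' adjustment of p-values covered the region, which was so from a mean signal of 63.8 normalized reads upward.

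The displacement had no sharp border where the stretch begins. In bins of 5 Mb, the 27 bins before it had median log2 fold changes between 0.06 and 0.42 per the authors' deposited table. The highest of them was the bin next to the stretch, which starts at 130 Mb, at 0.42 over 353 regions. The stretch itself gave 0.43 in its first bin, 0.39 from 140 to 145 Mb and 0.28 over the 3 regions beyond. Below 120 Mb the highest bin was the first of the short arm, at 0.36, and the lowest values, 0.06 to 0.08, were at 15 to 25, 40 and 75 to 85 Mb. The 905 regions from 120 Mb up to the stretch had a median of 0.34, so that part of 8q lay closer to the stretch than to the 5105 regions below 120 Mb, at 0.17. At the border, the last listed region outside (chr8:134989105-134989406) had a value of 0.39 with a standard error of 1.25 per the authors' deposited table, and the one before it (chr8:134972239-134973221) 0.25 with 0.20. The first inside (chr8:135004445-135005658) had 0.26 with a standard error of 0.23.

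**Figure D1:**
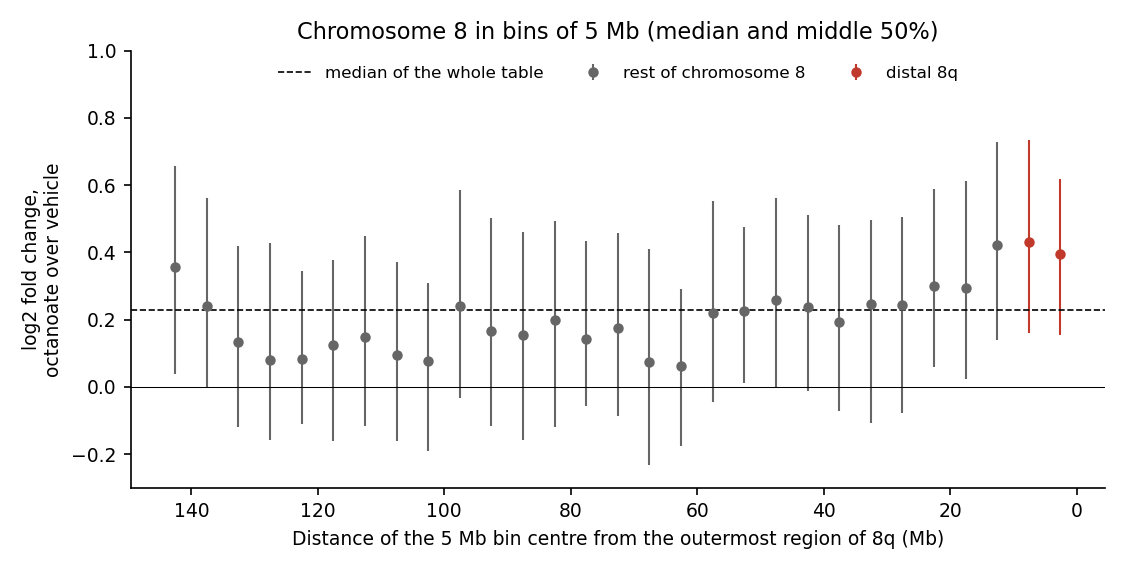
Median log2 fold change (points) and middle 50% (bars) in bins of 5 Mb along chromosome 8 that hold 20 or more listed regions, against distance from the outermost listed region of 8q. The 2 bins drawn for distal 8q, at 0.43 and 0.39 (its last bin, of 3 regions, is not drawn), and the bin beside them, at 0.42, stand at the upper end, and the bin of the short arm's end, at 0.36, comes next.

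Within the stretch the values fell into a higher proximal part and a lower end. The 453 members of its first 8 Mb had a median of 0.46 on the log2 scale per the authors' deposited table, and the 121 members in the last 2.05 Mb had 0.23, which equals the median of the whole table to 2 decimals. This division was made after the values were seen. By single Mb, medians ran from 0.31 at 137 Mb to 0.58 at 142 Mb and were 0.23 and 0.22 in the next 2. At 142 Mb, where TSNARE1, ADGRB1, ARC and the first LY6 genes lie, 56 of 57 members were above 0. The 2 last full Mb are also where genes are dense: 32 and 46 protein-coding genes start there, against 0 to 5 in each Mb before 142 Mb and 16 at 142 Mb. Their regions had higher mean signals, with medians of 18.2 and 39.9 normalized reads against 7.58 to 17.7 in the other Mb.

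**Figure D2:**
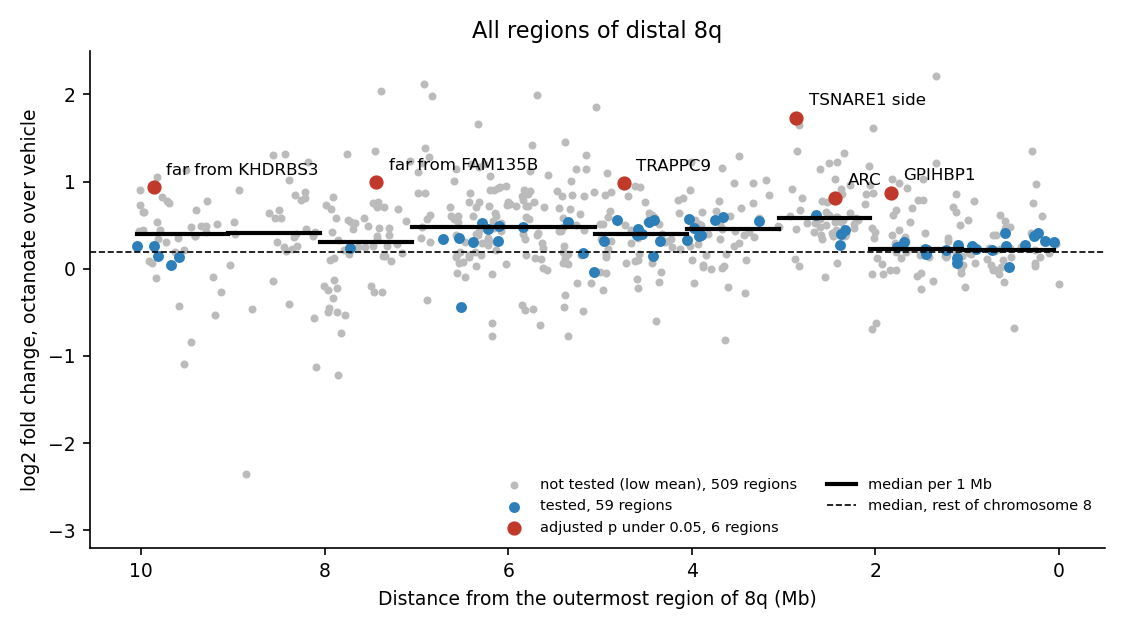
Log2 fold change of each of the 574 members against its distance from the outermost region of 8q, with black bars for the median of each Mb that holds 20 or more members and a dashed line at 0.19 for the rest of chromosome 8. The 6 regions with an adjusted p under 0.05 are spread over the stretch, and the 2 bars nearest the end sit close to the dashed line.

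The 82 members no more than 1 kb from an end of a protein-coding gene had a median change of 0.23 (log2) per the authors' deposited table, and the 492 others had 0.45. The same classes in the rest of chromosome 8 had 0.08 and 0.22. The stretch was thus higher by 0.15 at gene ends and by 0.23 away from them. Position differed between these classes, since 58 of the 82 lay in its lower end. In the first 8 Mb the median was 0.43 over 24 members at gene ends and 0.46 over 429 away from them, and in the last 2.05 Mb it was 0.21 over 58 and 0.28 over 63. Members inside a gene but over 1 kb from its ends, 213 in all, had 0.42, the 279 outside genes had 0.46, and the 166 members over 100 kb from any protein-coding gene had 0.43.

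Regions of chromosome 8 were divided into 10 equal classes of mean normalized read count, and the median of distal 8q was above that of the rest in each of the 10. The gap was 0.15 in decile 5, its lowest, 0.45 in decile 1, its highest, and 0.18 in decile 10, where 80 members and 579 other regions were compared. Averaged over deciles it was 0.24. Regions in decile 1 carry at most 4.46 normalized reads, and the 51 members there had a median standard error of 1.24, so that class is the least precise. Their median width over all members was 448 bp against 432 bp, and the median mean signal 13.2 normalized reads against 11.4. Members lay closer together, at 57.1 regions per Mb against 44.6. This was not particular to the stretch, since 8q from 120 Mb up to it had 60.3 per Mb. Equally long ends of 1p, 10q and 12q had 74.7, 59.9 and 65.4.

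**Figure D3:**
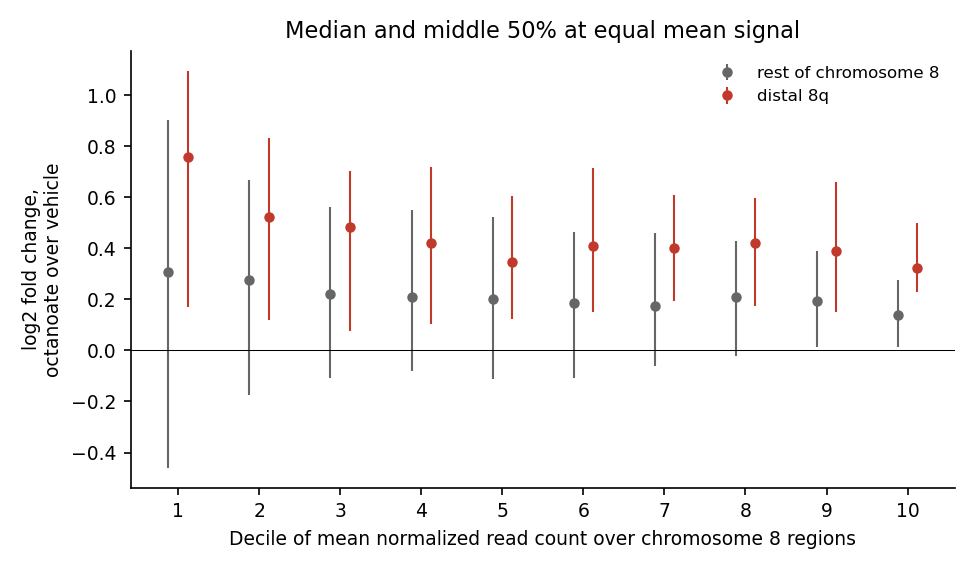
Median log2 fold change and middle 50% in each decile of mean normalized read count, for distal 8q and for the rest of chromosome 8. The point of distal 8q is the higher one in every decile, by 0.15 to 0.45.

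Of the 574 members 65 were tested, and 6 of these had an adjusted p under 0.05 per the authors' deposited table (DESeq2, Benjamini-Hochberg), all of them higher after octanoate. That is 9.23% of the tested members, beside 0.418% of the 479 tested regions in the rest of chromosome 8 and 1.02% of the 11185 tested regions of the whole table; since the stretch was chosen for 2 of the 6, nothing is read from these shares. At an adjusted p under 0.1 there were 10 members, all higher; regions that were higher at this level made up 15.4% of the tested members, 1.46% of the rest of the chromosome and 2.96% of the whole table, and 1 lower region in the rest of the chromosome also reached it. The 2 called regions in the rest of the chromosome both lay above 120 Mb. The limit for being tested was a mean signal of 63.8 normalized reads. In vehicle, the called members near TSNARE1, FAM135B, KHDRBS3 and GPIHBP1 stood below this limit, at about 29.9, 46.8, 49.8 and 54.0. These members were tested only through their higher level in octanoate. The called members at TRAPPC9 and ARC stood above the limit in vehicle, at about 79.7 and 84.0. Among the tested members 63 had a log2 fold change above 0 per the authors' deposited table and 2 below it, and the median was 0.32, against 0.14 in the rest of the chromosome. At an unadjusted p under 0.05, 24 members were higher and 0 lower per the authors' deposited table, which is 36.9% beside 14.8% of the whole table and 10.2% of the rest of chromosome 8. With the tested members' median standard error of 0.23, a log2 fold change of 0.45 was needed to reach that level. Relative to the tested median of the whole table the 6 changes were 0.63 to 1.55, and after that centring the region near TSNARE1 alone kept an adjusted p under 0.05 (0.000199, recomputed from the deposited values), with 0.132 for the TRAPPC9 region and 0.356 to 0.638 for the other 4.

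**Figure D4:**
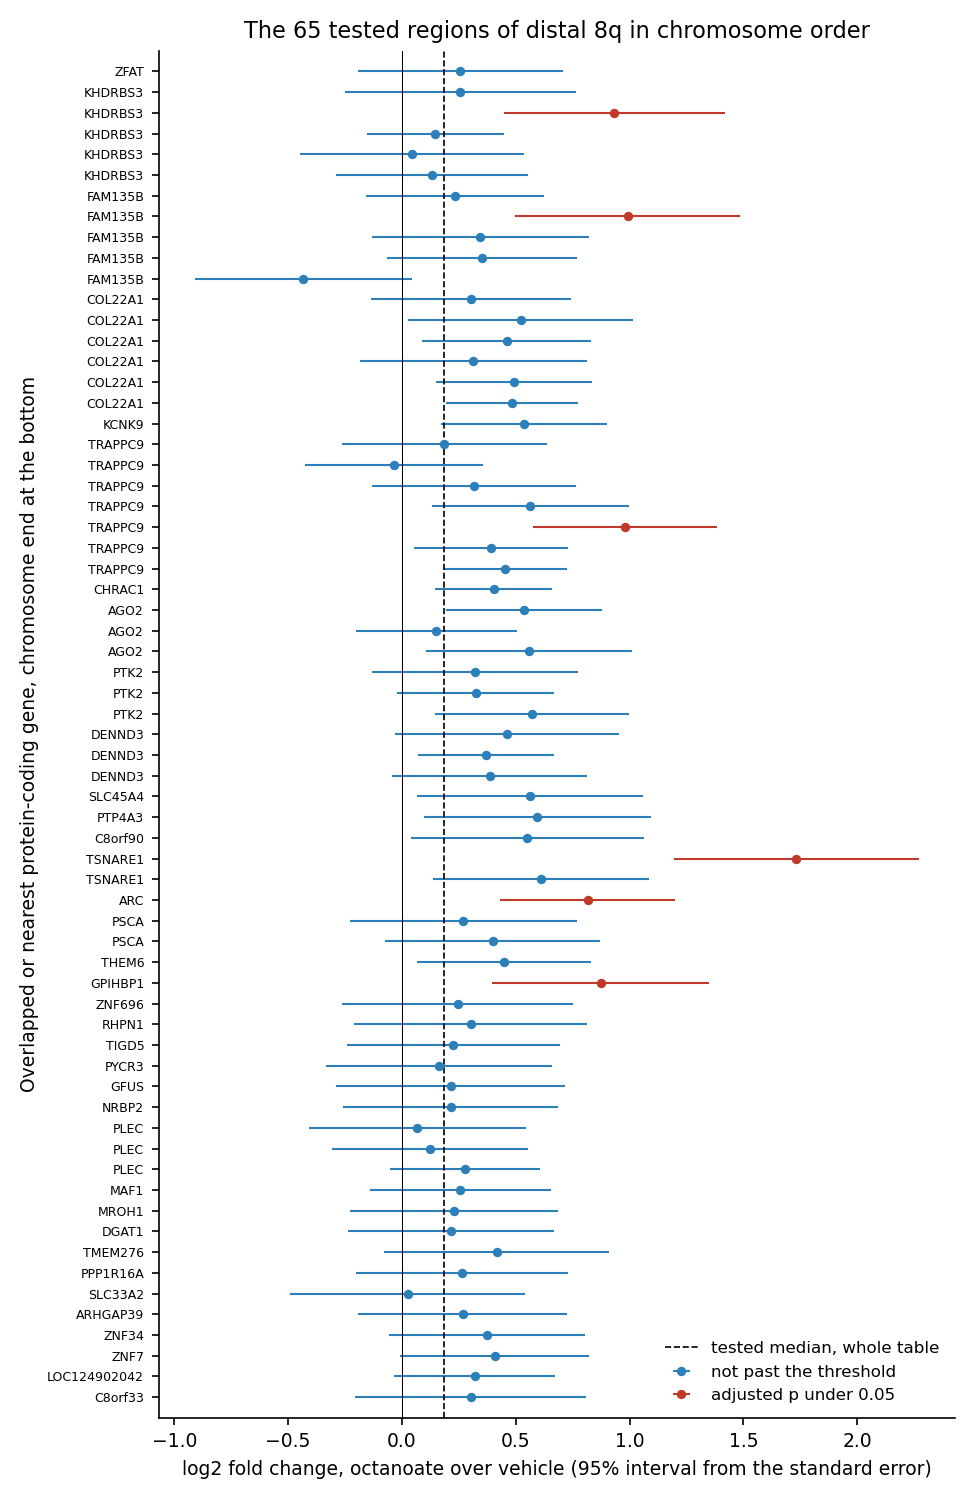
Log2 fold change of the 65 tested members with its 95% interval (1.96 standard errors as deposited), in chromosome order and named by the overlapped or nearest protein-coding gene. The TSNARE1 region at 1.73 stands clear of the rest, the other 5 called regions lie between 0.82 and 0.99, and most intervals include the dashed line at the tested median of 0.19.

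The tested member with the largest change lay between protein-coding genes on the TSNARE1 side. It covers chr8:142191609-142193870, is 2262 bp wide, lies 18.2 kb from the nearer end of TSNARE1 and falls inside LOC105375792, a long noncoding RNA gene of RefSeq. Its mean was 64.6 normalized reads, which together with the fold change stands for about 29.9 in vehicle and 99.3 in octanoate, a 3.32-fold rise. The log2 fold change was 1.73 with a standard error of 0.27 (95% interval 1.19 to 2.27, adjusted p 3.07e-06 by DESeq2 per the authors' deposited table). Only 3 tested members had a lower mean, so this region stood just above the limit of 63.8 for being tested. Its level in vehicle lay below that limit, so it passed only through its higher level in octanoate. Its neighbour 4.15 kb away, which overlaps the noncoding gene LINC00051, had a log2 fold change of 1.35 (standard error 0.47, unadjusted p 0.0040 per the authors' deposited table), but with a mean of 21.9 it was not tested. The neighbour on the other side, 7.14 kb away, had 0.45 with a standard error of 0.74 and a mean of 8.72, and it was not tested either. The 9 members within 100 kb of the called region, both neighbours included, were all above 0, with a median of 0.67.

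Inside TSNARE1, a gene of 195 kb, 8 members had log2 fold changes from 0.04 to 1.65 with a median of 0.57 per the authors' deposited table, and all were above 0. With the 10 members outside the gene that are assigned to it, the called region among them, 18 members had values from 0.04 to 1.73. Their median of 0.61 was the highest of the 10 genes with 10 or more members. Of the 18, 16 were not tested, and the median standard error of the 18 was 0.72. The stretch was chosen for the called region, so nothing is read from the rank. One region inside the gene was tested (chr8:142402436-142404186), 2.84 kb from a gene end, at 0.61 with a standard error of 0.24 (adjusted p 0.177 by DESeq2 per the authors' deposited table). Next to TSNARE1, ADGRB1, which encodes an adhesion G protein-coupled receptor, had 12 members, none of them tested, with a median of 0.59 and 11 above 0.

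In TRAPPC9 the displacement was uneven. The gene spans 731 kb (chr8:139727725-140458579), and of the 50 members assigned to it 41 were above 0, with a median of 0.45 and a range from -0.48 to 1.86 per the authors' deposited table. The called region (chr8:140309269-140310512) lay inside the gene, 148 kb from its nearer end, with a mean of 118 normalized reads, about 79.7 in vehicle and 157 in octanoate. Its log2 fold change was 0.98 with a standard error of 0.21 (95% interval 0.58 to 1.38, adjusted p 0.00139 by DESeq2 per the authors' deposited table). The other 6 tested members of TRAPPC9 ran from -0.03 to 0.56 and none had an adjusted p under 0.05. At chr8:139982006-139983613 the log2 fold change was -0.03 (standard error 0.20), one of the 2 tested members below 0. Its mean of 111 normalized reads was close to the 118 of the called region. The tested region nearest to the called one, 70.1 kb away, had 0.56 (standard error 0.22, unadjusted p 0.0105 per the authors' deposited table).

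The imprinted neighbours of TRAPPC9, PEG13 and KCNK9, each had 1 tested region, and neither region was called. A region inside PEG13 (chr8:140098318-140099773) had a mean of 84.6 normalized reads and a change of 0.32 (log2, SE 0.23, adjusted p 0.53 by DESeq2 per the authors' deposited table). KCNK9 had 39 members with a median of 0.43 and 33 above 0. Its one tested region, 1.89 kb outside the gene (chr8:139705011-139706918), had 0.54 with a standard error of 0.19, beside a median of 0.32 over tested members. Its unadjusted p was 0.0038 and its adjusted p 0.11 (DESeq2, per the authors' deposited table). Just past the other end of TRAPPC9, 2 strong regions fell short of the threshold: one 5.34 kb from the gene, with a mean of 250 and a log2 fold change of 0.45 (adjusted p 0.0676), and one at CHRAC1, a histone-fold subunit of the CHRAC chromatin remodelling complex, with a mean of 307 and 0.40 (adjusted p 0.0856, both DESeq2 per the authors' deposited table). The latter had the highest mean of all members.

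**Figure D5:**
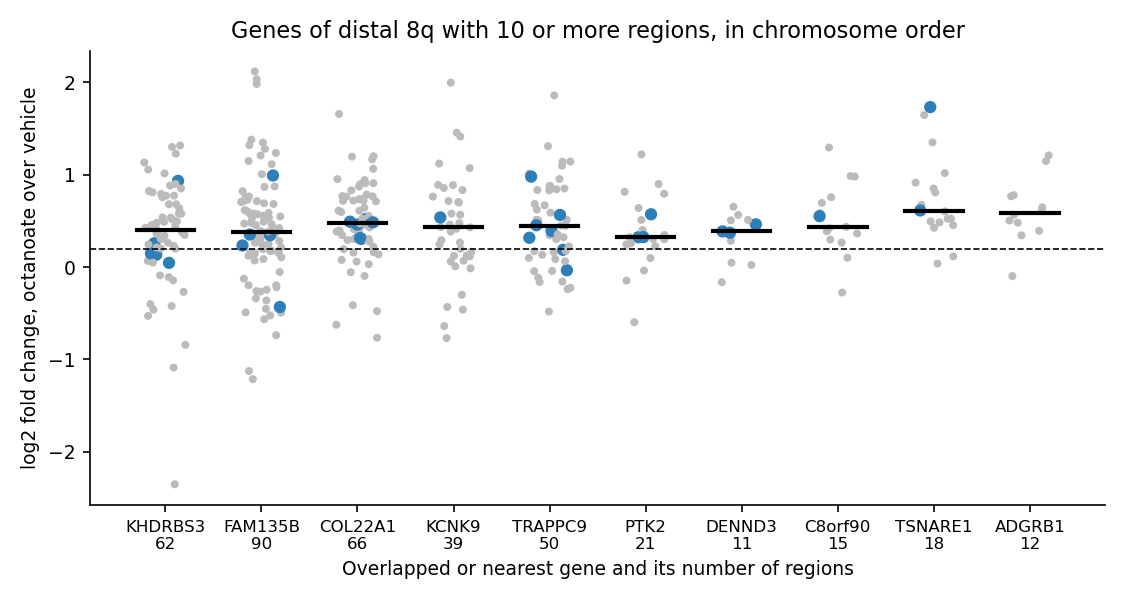
Log2 fold change of every member assigned to the 10 genes with 10 or more members, tested ones in blue, with a black bar at each gene's median and a dashed line at 0.19 for the rest of chromosome 8. All 10 medians lie above the line, from 0.32 for PTK2 to 0.61 for TSNARE1.

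The gene-poor proximal part held 2 called regions far from any protein-coding gene. One (chr8:135189385-135190513), 267 kb from KHDRBS3, which encodes an RNA-binding protein, had a mean of 72.5 normalized reads and a change of 0.93 on the log2 scale (SE 0.25, adjusted p 0.0262 by DESeq2 per the authors' deposited table). A tested region only 1.21 kb before it had 0.26 with a standard error of 0.26, and the next listed region after it, 22.6 kb away, which was not tested, had -0.11 with a standard error of 0.41 and a mean of 26.2 normalized reads. Both neighbours lay below it, and the differences were not tested. The other (chr8:137614097-137615169) lay 515 kb from FAM135B, with a mean of 70.0 and a change of 0.99 (log2, SE 0.25, adjusted p 0.0174 by DESeq2 per the authors' deposited table). Its neighbours were weak, with means of 3.67 and 8.09 normalized reads and standard errors of 1.22 and 0.76, so their values of 1.35 and 0.34 are imprecise.

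KHDRBS3, with 62 assigned members, and FAM135B, with 90, had medians of 0.40 and 0.38 per the authors' deposited table, with 51 and 71 above 0. The lowest tested member of the stretch lay 38.9 kb from FAM135B (chr8:138536596-138537587), with a log2 fold change of -0.43, a standard error of 0.24 and an unadjusted p of 0.0747 per the authors' deposited table. This was the one tested member whose 95% interval lay wholly below the tested median of 0.19. COL22A1 was more uniform: 60 of its 66 members were above 0, and its 6 tested ones ran from 0.30 to 0.52. Of these the strongest by mean, 206 normalized reads, lay 301 kb from the gene (chr8:139214606-139216377) with 0.48 (standard error 0.15, adjusted p 0.0675 by DESeq2 per the authors' deposited table).

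Between TRAPPC9 and the called region near TSNARE1 lie genes of RNA silencing, adhesion and transport, and none of the 14 tested regions here was called; the interval was drawn so that the called regions at either side lie outside it. Of the 14, 9 were higher at an unadjusted p under 0.05 beside 24 of all 65 tested members, 3 had an adjusted p under 0.1 beside 10 of the 65, and their median log2 fold change was 0.46 beside 0.32, per the authors' deposited table. AGO2, the slicer of the RNA-induced silencing complex, had 8 members, all above 0, and its 3 tested ones stood at 0.15, 0.54 and 0.56 per the authors' deposited table. The middle one (chr8:140588526-140589782) had an adjusted p of 0.0905 (DESeq2, per the authors' deposited table). PTK2, which encodes focal adhesion kinase, had 21 members with a median of 0.32, the lowest of the 10 genes with 10 or more, and a region at its gene end had 0.32 with a standard error of 0.18. At the end of DENND3, an activator of the small GTPase RAB12, a region with a mean of 199 had 0.37 (standard error 0.15, adjusted p 0.205 by DESeq2 per the authors' deposited table). PTP4A3, a phosphatase gene, and SLC45A4, a solute carrier gene, each had 1 tested region, at 0.59 and 0.56. DENND3, with 11 members, had a median of 0.39, and C8orf90, with 15, one of 0.44.

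The last 2 called regions lay toward the telomere. The first (chr8:142614205-142615827) overlapped ARC at its gene end and was the one called member within 1 kb of such an end; ARC is known as an immediate early gene of neurons. Its mean was 116 normalized reads, about 84.0 in vehicle and 148 in octanoate, and its log2 fold change 0.82 (standard error 0.20, adjusted p 0.00971 by DESeq2 per the authors' deposited table). All 7 members assigned to ARC, the called region included, were above 0, from 0.38 to 1.03. So were all 21 members within 100 kb of the called region, itself left out, a count that includes other ARC members. The second (chr8:143218435-143220636) lay 1.27 kb outside GPIHBP1, whose protein carries lipoprotein lipase across the capillary wall. It had a mean of 76.6 and a change of 0.87 (log2, SE 0.24, adjusted p 0.0359 by DESeq2 per the authors' deposited table), and it overlaps the noncoding gene LOC124902036. The 2 other members assigned to GPIHBP1 had -0.01 and 0.39 at means of 7.19 and 8.53 normalized reads.

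The lists of genes by function are described by their counts, beside a median of 0.41 over all members, 86.1% of members above 0 and 9.23% of tested members called; their medians cover tested and untested members alike. For membrane traffic (TRAPPC9, TSNARE1, DENND3 and VPS28) 70 of 80 members were above 0 with a median of 0.49, and 2 of 12 tested were called, namely the regions that led to the choice of the stretch. Of the LY6/uPAR genes 9 of 12 had a member. Their 25 regions had a median of 0.54 with 21 above 0, and of 3 tested the GPIHBP1 region was called. LY6E, an interferon-inducible member of the family, had 7 regions between -0.70 and 1.61, and LY6H, a family member of the brain, had 2, at -0.07 and 0.06. None of the LY6E and LY6H regions was tested, and their median standard errors were 0.57 and 0.65. The middle 50% of the family ran from 0.39 to 0.87, beside 0.15 to 0.69 over all members. Differences between its genes were not tested. The 8 neuronal and synaptic genes had 66 regions with a median of 0.44, 2 tested, of which the ARC region was called. Adhesion, polarity and signalling genes had 115 regions with a median of 0.40 and 0 called of 15 tested; 6 of these 15 were higher at an unadjusted p under 0.05, beside 24 of the 65 tested members. Of this list, PLEC, which encodes the cytoskeletal linker plectin, had 9 regions all above 0, of which the 3 tested stood at 0.07, 0.12 and 0.28. Among the RNA silencing and processing genes 66 of 80 regions were above 0 with a median of 0.40, and the region far from KHDRBS3 was the 1 called of 8 tested.

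Of the remaining 6 lists, the lowest medians were those of 3 lists whose 12 regions all lay in the last 2.05 Mb of the stretch, where all members together had 0.23. Genes of the stress response and genome upkeep (HSF1, RECQL4, TONSL and MAF1) had 4 regions, all above 0, with a median of 0.17 and a highest value of 0.26. Mitochondrial genes had 0.17 over 5 regions, and ribosome and translation genes 0.21 over 3. The 11 zinc finger genes had 19 regions, all in that last part too, with a median of 0.37 and 17 above 0. Solute carriers had 0.39 over 7 regions. The lipid and steroid genes had 8 regions with a median of 0.47, and at DGAT1, the enzyme that completes triglyceride synthesis, the tested region at the gene end had 0.22 (standard error 0.23, adjusted p 0.692 by DESeq2 per the authors' deposited table). In these 6 lists 1 of 8 tested regions was called, beside 9.23% of all tested members; it was that of GPIHBP1, counted above with the LY6/uPAR genes.

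The 509 members under the limit on mean signal were measured with less precision than the tested ones. Their median log2 fold change was 0.42 and their median standard error 0.64 per the authors' deposited table. At an unadjusted p under 0.05, 31 of them were higher and 0 lower, 6.09% in either direction, beside 138 higher and 13 lower, or 2.73%, of the 5531 such regions in the rest of the chromosome. A pair of them had a p at or below the largest among the called members, 0.000324: a region inside COL22A1 (chr8:138792391-138793690, log2 fold change 1.20, standard error 0.31, mean 47.3) and one 41.0 kb from PTK2 (chr8:141043116-141043947, log2 fold change 1.22, standard error 0.33, mean 40.5), both listed with an adjusted p of 1, like every region not tested, per the authors' deposited table. The extreme values of the stretch, -2.35 and 2.21, belong to regions with means of 1.95 and 3.82 and standard errors of 1.95 and 1.29, and neither had an unadjusted p under 0.05.

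Equally long stretches at the ends of 1p, 10q and 12q were set beside distal 8q as the most similar parts of the table. Because they were taken as such, nothing is read from the likeness of their values. Their medians were 0.43 over 751 regions, 0.46 over 602 and 0.42 over 657 per the authors' deposited table, and 85.4% to 85.6% of their regions were above 0. Of their tested regions 8 of 92, 3 of 58 and 2 of 66 were called, all higher, which is 8.7%, 5.17% and 3.03% beside the 9.23% of distal 8q. At an unadjusted p under 0.05, 41.3%, 46.6% and 43.9% of them were higher, each above the 36.9% of distal 8q, and the differences were not tested. The other end of chromosome 8 was lower, with 0.29 over the 328 regions of its first 10 Mb and 0 of 15 tested regions called. The highest tested change in distal 8q, 1.73, was also the highest of the whole table. It belongs to the region near TSNARE1, which led to the choice of the stretch. In the ends of 1p, 10q and 12q the highest were 0.96, 0.84 and 0.96. The difference was not tested, and nothing is read from it. As a check of the cell type, 5 of 7 melanocyte lineage genes had a listed region within 1 kb of a gene end (not TYR and TYRP1), with a mean of 168 normalized reads at MITF, the lineage's master regulator, and of 14.6 to 34.2 at MLANA, SOX10, DCT and PMEL. All 3 genes of undifferentiated melanoma cells had one, with means of 73.9 at EGFR, 31.2 at AXL and 28.4 at NGFR. Neither of the 2 epithelial markers had one; 2 of 3 blood markers did, PTPRC at a mean of 4.68 and CD3E at 70.1, the latter above 4 of the 5 melanocyte genes, and their part in the results was not tested.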

How the data were processed

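ATAC-seq libraries of A375 cells treated with octanoate (2) or vehicle (2) were grouped by their titles. The submitters' processing notes name Bowtie2, Picard, MACS2, featureCounts, DESeq2, bedtools 2.29.1 and build hg38; roles and settings, such as a shift for the Tn5 cut, are not given in the sources used here. Per the file headers, the authors' table holds a mean normalized read count (a signal over the 4 libraries), a log2 fold change with its standard error, a Wald score, a p-value and an adjusted p-value. It has 0 columns per library. Recomputing the deposited score as log2 fold change over standard error gave a largest difference of 2.31e-14. The deposited adjusted p-value matched Benjamini-Hochberg adjustment of the 11185 p-values whose mean signal was 63.8 or more (largest difference 1.69e-14), and was listed as 1 in the other 114801, which were treated as not tested.

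Coordinates are counted from 1. Each region went to the protein-coding gene it overlaps, the shortest if several, or else to the nearest, in the RefSeq gene table of GRCh38.p14; neither strand nor exons were used. Group levels were computed from the deposited mean and fold change, assuming equal weight of both groups. Intervals of 95% use the deposited standard errors. Medians over regions have no error from replicates. Named were called members, the 6 largest and 6 smallest tested changes, the 5 highest means, tested members of TRAPPC9 and TSNARE1, genes with 10 or more members and the fixed gene lists; the other regions named were chosen after their values were seen. The members and lists were chosen with earlier results of these data known. Scripts (Python 3.11.15, pandas 2.3.3, scipy 1.17.1) were tested on simulated data.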

Additional observations from a re-analysis of the deposited data

How the results depend on the processing

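The count of 6 called members became 10 at an adjusted p under 0.1, 3 at 0.01, 1 when a doubling was also required and 2 (TRAPPC9 and TSNARE1) when Benjamini-Hochberg covered every listed region, which raises adjusted p by construction. Centring on the tested median of the whole table, or on that of the rest of chromosome 8, left 1, the region near TSNARE1, with adjusted p of 0.000199 and 6.99e-05; the TRAPPC9 region had 0.132 and 0.0503, and the other 4 had 0.165 to 0.638. Starting the stretch at 130 or 140 Mb gave 7 and 4. The members' median of 0.41 became 0.22 after centring on the tested median, which sets all members against tested regions only. In tested members it was 0.32, beside 0.19 over the tested regions of the whole table. The difference of 0.22 from the rest of the chromosome stayed above 0 under all 13 alternatives. It was 0.15 at gene ends and 0.12 against the first 10 Mb of the chromosome. Chosen after the data were seen, the first 8 Mb of the stretch had a median of 0.46 and a difference of 0.27, its last 2.05 Mb had 0.23 and 0.033, and against the regions from 120 Mb up to the stretch the difference was 0.069. The cause of these shifts was not tested. Without the regions of TRAPPC9 and TSNARE1 the median was 0.40 and the difference 0.21. No paired analysis was possible because single libraries have no values here; for that reason no count test, rescaling or fit without a replicate was run.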

Other observations

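Noncoding genes of RefSeq overlapped 86 members, 17 of them tested and 2 called, beside 6 called of all 65 tested members. The 2 were those near TSNARE1, which led to the choice of the stretch, and GPIHBP1. On the log2 scale of the authors' deposited table their median change was 0.39, and that of the other 488 members was 0.41. The long noncoding gene LINC02055 (chr8:136530798-136897601), which lies in the stretch without protein-coding genes beyond KHDRBS3, had 18 members, 17 of them above 0, and a median of 0.52 per the authors' deposited table; none was tested. A region inside LOC401478, nearest to FAM135B among protein-coding genes, had a log2 fold change of 1.24 (standard error 0.42, unadjusted p 0.00355, mean 25.2 normalized reads) per the authors' deposited table, and it was not tested either. These regions were picked after their values were seen.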
